A study of Mus musculus with 2 samples.

Results

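The kappa light chain variable segments were described in the mid colon of WT and C3 KO mice. They are the rows of the Mouse Gene 2.0 ST array, among its main transcript clusters, whose symbol starts with Igkv and a number or with Igk-V, and they number 106 of 33793 clusters. The rule selected the rows by name and not by their values, but it was chosen with earlier results of these data known. The WT array held RNA of FVB mice and the C3 KO array RNA of mice without complement component 3 on the FVB background, both 16 weeks old and without treatment. There was 1 array per group, and the text used here does not say how many mice gave RNA to an array or which part of C3 is deleted. The WT and C3 KO mice came from crosses of heterozygous parents. The tissue is called distal colon in the sample records and mid colon in the extraction step.

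A B cell builds its kappa light chain by joining 1 variable segment to 1 joining segment in its DNA, and the joined exon is then spliced to the single constant exon. The variable segment supplies most of the antigen contact of the light chain. The colon wall is rich in plasma cells, the antibody-secreting descendants of B cells, which pair most of their heavy chains with kappa in the mouse. A variable segment is thus read in those cells that chose it, while the constant exon is read in all kappa cells.

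Levels are log2 values after robust multi-array average (RMA) normalization, so that a difference of 1 is 2-fold, and differences are C3 KO minus WT. Rows past 1.5-fold, 0.58 on the log2 scale, were counted as higher or lower. Because each genotype has a single array, the spread from mouse to mouse is unknown and nothing was tested. Each count is instead read against the share of all main clusters past the same fold. Probe sets differ in brightness for the same amount of RNA, so a row is compared between the arrays and not with other rows.

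The C3 gene stood at 8.15 in WT against 6.80 in C3 KO. The colon and muscle markers were bright in both arrays: the 9 colon epithelium genes lay between 9.40 and 13.23 in WT and between 9.55 and 12.74 in C3 KO. Their median log2 difference was 0.04, and Car1, a carbonic anhydrase, was the single gene of the list past 1.5-fold, at 11.51 and 10.40. Of the 7 smooth muscle genes 0 passed 1.5-fold, and their median difference on the log2 scale was 0.11. All 10 pancreatic acinar markers stood lower in C3 KO, their median level being 12.67 in WT against 5.12 in C3 KO. Xist, the RNA of the inactive X chromosome, was at 10.35 in WT against 3.81, below background, in C3 KO. The Y-linked Ddx3y was at 5.18 and 7.68. The 2 arrays thus differ as a female sample (WT) and a male sample (C3 KO) would. With 1 array per group, sex and genotype cannot be told apart in any comparison below. The part of the acinar and sex-linked transcripts in the results below was not tested.

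Of the 106 rows, 104 lie on a kappa variable segment of the RefSeq annotation of GRCm38.p6, and 103 of the 106 overlap the segment whose symbol they carry. The array covers 104 of the 162 Igkv segments that RefSeq lists. By RefSeq, 95 of the rows are functional variable segments and 9 are pseudogenes. All rows lie on chromosome 6, from 67555636 to 70726757 in the file's coordinates, where 83 of the 106 starts equal the RefSeq start in GRCm38.p6. The names and coordinates are those of the C57BL/6J reference, whereas the mice were FVB, and the part of strain differences in the probes was not tested. The rows hold 8 to 21 probes, with a median of 11 against 22 for all main clusters.

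In all, 3 rows carry a name that their position does not bear out, and these are the 3 brightest by mean level. The row named Igk-V1 (chromosome 6, 68270527 to 68271267) lies on Igkv1-110. The row named Igk-V21 covers 42 bases (70723886 to 70723927) and lies on Igkj5, a joining segment. A second row named Igkv6-23 (70726435 to 70726757), apart from the true Igkv6-23 row, lies on Igkc, the constant exon of every kappa chain, and its own description names the constant region.

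The rows on the constant exon and the joining segments differed by about 1.5-fold or less. The constant exon row stood at 12.66 in WT against 12.92 in C3 KO, a log2 difference of 0.26. The joining segment Igkj1 was at 12.34 and 12.20, and Igkj3 at 7.27 and 7.17, so both stood within 1.5-fold. Jchain, the protein that links IgA units into dimers, was at 10.51 in WT against 10.81 in C3 KO, and Pigr, the receptor that carries IgA across the epithelium, at 12.90 and 12.93. The Igkj5 row labelled Igk-V21 was at 11.49 in WT against 12.09 in C3 KO, a log2 difference of 0.60 that is just past 1.5-fold, and 0.55 after loess centring. In bulk tissue, fewer cells of a type and less RNA per cell cannot be told apart.

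The kappa rows as a whole differed widely and in both directions. Of the 106 rows, 28 (26.4%) were at least 1.5-fold higher in the C3 KO array, against 3.66% of all main clusters, and 13 (12.3%) were at least 1.5-fold lower, against 3.82%. At 2-fold, 17 rows were higher, against 0.669% of all main clusters, and 6 were lower, against 0.678%. In either direction 41 rows (38.7%, against 7.48%) passed 1.5-fold, and 65 rows did not. The log2 differences of the 106 rows had a median of 0.15, beside 0.00 over all main clusters, and the excess of higher rows depends on the scale. Relative to the kappa constant exon, a scale chosen after the data were seen, 19 rows were higher, 26 were lower and the median was -0.11. The spread of the rows was wide: the SD of the log2 differences over the 106 rows was 0.91, against 0.41 over all main clusters, and the median absolute difference was 0.44 against 0.18.

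**Figure D1:**
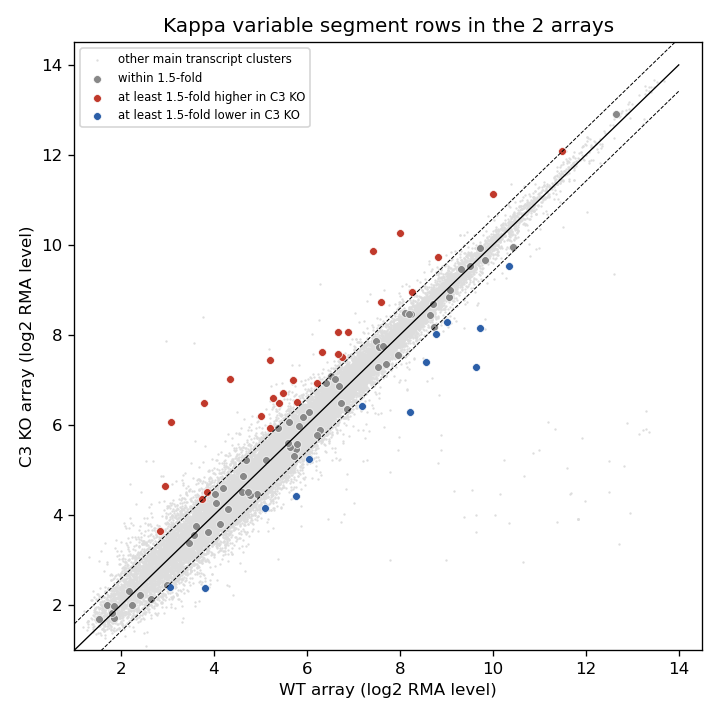
Level of each of the 106 kappa variable segment rows in the WT array (x axis) and in the C3 KO array (y axis), in log2 RMA units, over all other main transcript clusters in pale grey. Solid line, equal levels; dashed lines, 1.5-fold. The 28 rows in red lie above the upper dashed line and the 13 in blue below the lower one, at low and high levels alike.

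The wide spread was also present at high levels. Over all main clusters the share past 1.5-fold in either direction went from 13.0% at a mean level below 4, through 8.40% from 4 to below 6 and 4.02% from 6 to below 8, to 2.95% at 8 or more. For the kappa rows the shares were 21.1% of 19 rows, 38.7% of 31 rows, 44.8% of 29 rows and 44.4% of 27 rows. Of main clusters with 8 to 21 probes, 11.1% passed 1.5-fold, or 6.06% at a mean level of at least 6. Of the 56 kappa rows at that level, 25 (44.6%) did, 17 higher (background 3.50%) and 8 lower (background 2.56%). At a mean level from 8 upward, 9 main clusters (0.211%) were at least 2-fold higher in C3 KO, and 4 of the 9 were kappa rows: Igkv8-30, Igkv8-21, Igkv4-79 and Igk-V1.

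**Figure D2:**
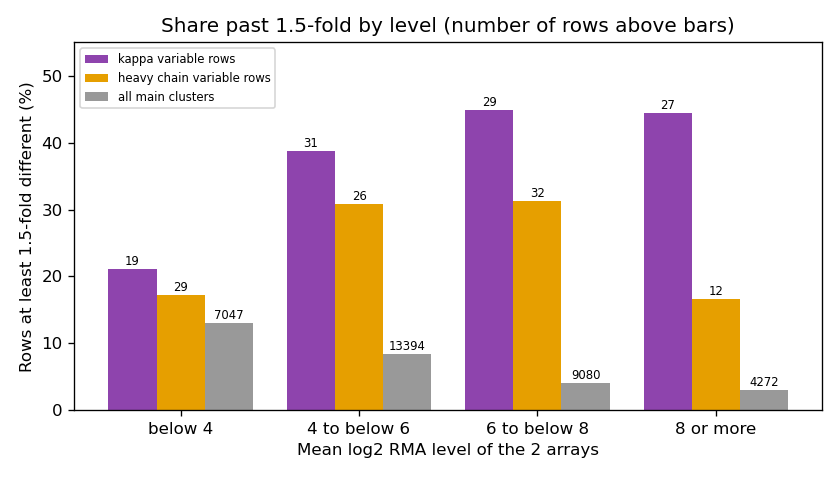
Share of rows at least 1.5-fold different between the arrays, in percent (y axis), in 4 bands of mean log2 RMA level (x axis), for kappa variable rows, heavy chain variable rows and all main clusters, with the number of rows above each bar. The share falls with level over all main clusters, from 13.0% to 2.95%, and is 44.4% for kappa rows at 8 or more.

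The heavy chain variable segments gave a similar but narrower picture: of 99 Ighv rows, 17 (17.2%, against 3.66% of all main clusters) were higher and 8 (8.08%, against 3.82%) were lower, with an SD of 0.72 and a median log2 difference of 0.01. Whether the kappa and heavy chain rows differ in spread was not tested.

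The largest differences were in segments that were dim in WT. Igkv6-32 stood at 3.08 in WT against 6.07 in C3 KO, and Igkv4-90 at 3.78 and 6.49. Both were below the median of the 23 antigenomic background probe sets in WT, which was 4.20 (3.99 in C3 KO), so the sizes of their folds, 7.94 and 6.53, are not exact. Igkv9-120, at 2.95 in WT against 4.64 in C3 KO, is of the same kind. Igkv5-48 was near background in WT, at 4.34, and stood at 7.03 in C3 KO. In all, 8 rows were below background in WT only, 0 in C3 KO only, 18 in both arrays and 80 in neither. Of the 80, 22 were higher and 11 were lower.

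Among segments well above background, 3 of the proximal locus were the most different upward. Igkv8-30 was at 7.42 in WT against 9.86 in C3 KO (5.42-fold), the largest positive difference among the 4272 main clusters whose mean level was at least 8. Igkv8-21 was at 8.004 and 10.27 (4.82-fold). Igkv3-7 was at 5.21 and 7.45 (4.71-fold). All 3 rows are of cross-hybridization type 1, the array's class for probe sets whose probes match 1 target, so that signal from a related segment is less likely to enter them than in type 3 rows, where some probes match more than 1 target.

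The 3 segments with the largest differences downward were bright in WT. Igkv6-17 was at 9.64 in WT against 7.30 in C3 KO (5.08-fold lower). Igkv3-4 was at 8.23 and 6.29 (3.82-fold lower), and Igkv4-58 at 9.73 and 8.16 (2.98-fold lower). These 3 rows are of type 3. Igkv12-38 was at 3.80 and 2.39, below background in both arrays, so its difference has no firm size. Igkv9-124 was lower by 2.53-fold, from 5.76 to 4.42, and Igkv4-80 by 2.23-fold, from 8.56 to 7.40.

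The families group segments by sequence likeness and carry the number before the hyphen. Some held higher and lower rows side by side, while others lay mostly on 1 side of 0. Counts by family stand beside 3.66% higher and 3.82% lower over all main clusters, and most families hold few rows. The 26 rows of Igkv4, the largest family, had a median log2 difference of -0.06. Of these, 3 were higher, namely Igkv4-90, Igkv4-79 (7.59 in WT against 8.73 in C3 KO) and Igkv4-59 (6.77 and 7.51). Another 4 were lower, namely Igkv4-58, Igkv4-80, Igkv4-86 (7.19 and 6.43) and Igkv4-50 (9.02 and 8.28). Igkv4-74, the brightest Igkv4 row, was at 10.43 and 9.94. Igkv4-72 at 9.72 and 9.94, Igkv4-68 at 9.50 and 9.53 and Igkv4-57-1 at 9.31 and 9.47 were close to equal.

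The 5 rows of Igkv5 lay mostly above 0, with a median log2 difference of 0.73. Besides Igkv5-48, the rows Igkv5-43 (6.68 in WT against 7.59 in C3 KO), Igkv5-45 (5.78 and 6.51) and Igkv5-37 (3.74 and 4.35) were higher. Igkv5-39 was at 6.23 and 5.78, within 1.5-fold. Igkv5-37 was below background in WT, which leaves 3 of the 5 rows higher and above background in both arrays.

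Rows of Igkv8 and Igkv6 are interleaved along the proximal locus. Above background in both arrays, the log2 differences of Igkv6 ran from -2.34 to 1.21 and those of Igkv8 from -0.80 to 2.44. Of 9 Igkv8 rows, 4 were higher and 1 was lower. Igkv8-24 was at 6.32 in WT against 7.63 in C3 KO, and Igkv8-26, dim in both arrays, at 2.85 and 3.65, while Igkv8-27 was lower, at 6.05 and 5.25. Of 10 rows named Igkv6, 3 were higher and 1 was lower, and the highest log2 difference, 2.99 for Igkv6-32, is of a row below background in WT. Igkv6-15 was at 5.49 and 6.70 and Igkv6-13 at 8.81 and 9.73, whereas the true Igkv6-23 row was at 5.78 and 5.59. Thus members of a single family, near each other on the chromosome, differed in opposite directions.

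The Igkv3 family, which lies nearest to the joining segments, had 3 of 9 rows higher and 1 lower, and the median log2 difference was 0.52. Igkv3-12 was at 6.67 in WT against 8.06 in C3 KO, and Igkv3-5 at 6.88 and 8.06. Igkv3-10 (6.40 and 6.94) and Igkv3-9 (4.69 and 5.22) were displaced upward by less than 1.5-fold. Igkv3-1, the last variable segment before the joining segments, was at 4.30 and 4.14, and Igkv3-2 at 5.59 and 5.61. Igkv3-4 was the single row of the family past 1.5-fold downward.

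Of the 10 rows of the Igkv1 family, 8 had a negative log2 difference and 0 were higher, with a median of -0.35. However, 5 of the 8 were below background in both arrays, and of the 5 rows above it in both, 3 were negative and 2 positive. Igkv1-117, the brightest of them, was at 10.34 in WT against 9.52 in C3 KO (1.76-fold lower), and Igkv1-115, a pseudogene below background in both arrays, was at 3.06 and 2.41. Igkv1-135 was at 7.50 and 7.87. The row on Igkv1-110, named Igk-V1 on the array, is not counted in the 10 and went the other way, at 10.01 in WT against 11.13 in C3 KO (2.18-fold higher). With it, the Igkv1 segments hold 1 higher and 2 lower rows.

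**Figure D3:**
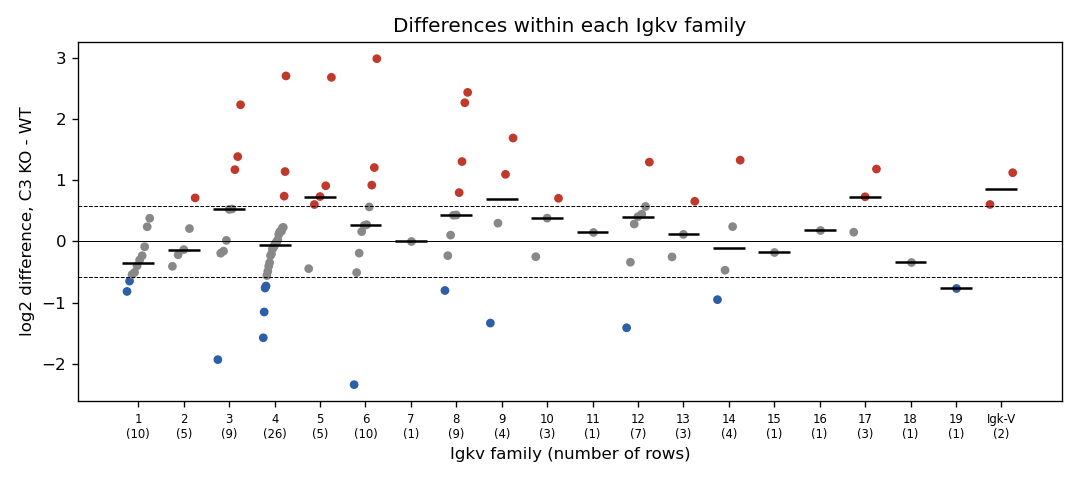
log2 difference (C3 KO minus WT, y axis) of each row by Igkv family (x axis, number of rows in parentheses); Igk-V marks the 2 rows with that name. Points in red and blue are at least 1.5-fold higher and lower, bars are family medians and dashed lines are 1.5-fold. Families with several rows past 1.5-fold, such as 3, 4, 6, 8 and 9, hold rows on both sides of 0.

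The smaller families added single rows on either side. Of 4 Igkv9 rows, Igkv9-120 and Igkv9-123 (5.40 in WT against 6.50 in C3 KO) were higher and Igkv9-124 was lower. Igkv14-111 was at 5.26 and 6.59 and Igkv14-126 at 5.10 and 4.15, so that the Igkv14 family too held both directions. Igkv12-46 was at 5.71 and 7.01, and the bright Igkv12-44 at 8.19 and 8.47. In Igkv17, the rows Igkv17-127 (5.02 and 6.20) and Igkv17-121 (5.21 and 5.94) were higher, 0 of its 3 rows lay below 0, and the pseudogene Igkv17-134 was at 2.16 and 2.31. Single higher rows were Igkv10-96 (8.25 and 8.96), Igkv2-112 (6.21 and 6.93) and Igkv13-84 (3.86 and 4.52), and Igkv19-93 (8.78 and 8.02) was lower.

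The other families with 1 row on the array lay within 1.5-fold. Igkv15-103, the brightest of them, was at 9.83 in WT against 9.66 in C3 KO. Igkv16-104 was at 7.54 and 7.73, and Igkv11-125 at 5.83 and 5.99. Igkv18-36 was at 4.14 and 3.81, both below background, and Igkv7-33 had the same level, 3.56, in both arrays. The brightest row of Igkv2 was Igkv2-137, at 9.07 and 8.85.

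Pseudogenes carry defects that prevent a working chain. Of the 9 pseudogene rows, 5 were below background in both arrays, and the median log2 difference of the 9 was -0.13. Of these rows 0 were higher and 2 were lower (22.2%, against 3.82% of all main clusters), namely Igkv14-126 and Igkv1-115. With 2 rows, this share carries little weight. Igkv1-115 was below background in both arrays, and the array's description of Igkv14-126 names a light chain mRNA and no pseudogene. Of the 95 functional rows, 27 were higher, against 3.66% of all main clusters, and 11 were lower, against 3.82%. Igkv4-73, which the array's description calls a pseudogene and RefSeq a functional segment, was nearly equal in both arrays, at 8.72 and 8.68.

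Higher and lower segments were interspersed along the 3171 kb from the first variable segment to the constant exon. Among the 35 variable rows farthest from the constant exon, 8 were higher and 5 were lower. Among the 35 rows in the middle these were 8 and 4, and among the 34 nearest rows 11 and 4. The shares over all main clusters were 3.66% higher and 3.82% lower. The nearest rows had the widest spread, with an SD of 1.15 against 0.69 in the farthest. They include Igkv6-32, Igkv8-30, Igkv8-21, Igkv3-7, Igkv6-17 and Igkv3-4.

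Some neighbouring segments were past 1.5-fold in opposite directions. Of 103 pairs of neighbouring variable rows, with a median of 24.3 kb between starts, 18 had both rows past 1.5-fold. In 7 of these pairs both were higher, in 0 both were lower, and in 11 they were opposite. With 27 of the 104 variable rows higher and 13 lower, such pairs can arise from the counts alone. Whether the order of the rows adds to them was not tested. Igkv3-5 was higher and Igkv3-4 lower at a distance of 8.49 kb, and Igkv9-124 lower and Igkv9-123 higher at 12.2 kb. Igkv4-80 was lower and Igkv4-79 higher at 26.4 kb, and Igkv6-32 and Igkv8-30, both higher, lie 43.0 kb apart. Of 10 other transcript rows inside the locus that carry no kappa symbol, 3 passed 1.5-fold, and 0 of these had a mean level of 4 or more. The share past 1.5-fold was 7.48% over all main clusters and 13.0% at a mean level below 4. With 10 rows, the count is too small to set against these shares.

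**Figure D4:**
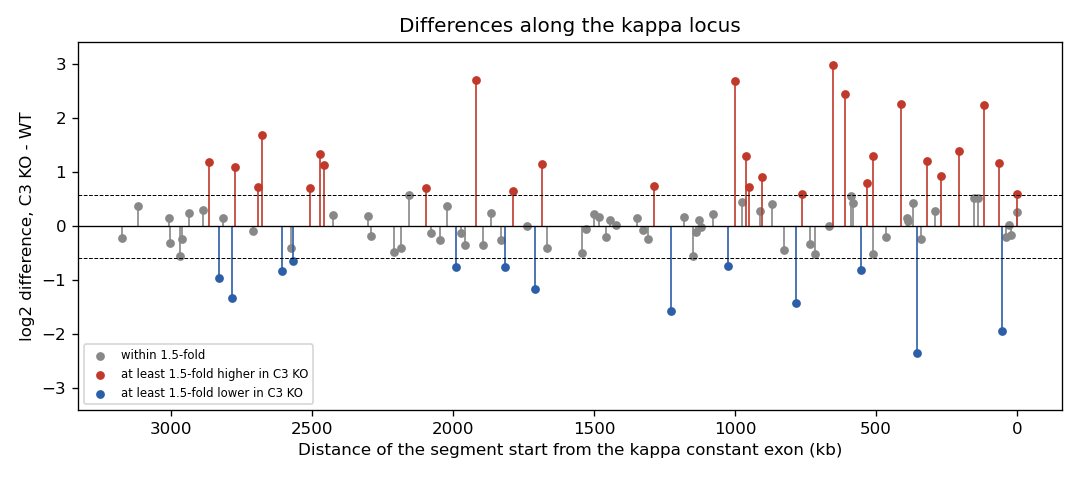
log2 difference (C3 KO minus WT, y axis) of each kappa row by the distance of its start from the kappa constant exon in kb (x axis, farthest at the left, constant exon at 0). Red and blue mark rows at least 1.5-fold higher and lower; dashed lines are 1.5-fold. Red and blue lines stand side by side over the whole locus, and of the 10 rows with a log2 difference beyond 1.5 in size all but Igkv9-120, Igkv4-90 and Igkv4-58 lie within 1000 kb of the constant exon.

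The orientation of a segment, which sets whether joining deletes or inverts the DNA between it and the joining segments, was noted for each row. Of 43 rows on the plus strand, that of the constant exon, 12 were higher and 5 were lower, and the median log2 difference was 0.18. Of 63 rows on the minus strand, 16 were higher and 8 were lower, with a median of 0.11. Over all main clusters 3.66% were higher and 3.82% were lower.

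Both classes of probe set held rows past 1.5-fold. Of the 50 rows of type 1, 12 were higher and 7 were lower, against 3.04% and 3.55% of all main clusters of that type. Together they are 38.0% of the rows, against 6.60%. Of the 56 rows of type 3, 16 were higher and 6 were lower, against 7.25% and 5.41%, or together 39.3% against 12.7%. The 9 rows of type 1 that were at least 2-fold higher include Igkv6-32, Igkv5-48, Igkv8-30, Igkv8-21 and Igkv3-7. By number of probes, 17 of 56 rows with 11 or more (30.4%) and 24 of 50 rows with fewer (48.0%) passed 1.5-fold. Of all main clusters with 8 to 21 probes, 11.1% did.

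Marker genes of the cells that read these segments were set beside them. Of 14 B cell genes, at levels of 4.37 to 6.26 in WT and 4.62 to 6.90 in the C3 KO array, 4 were higher, against 3.66% of all main clusters, and 0 were lower, against 3.82%. Their median log2 difference was 0.41, and the log2 of their summed signal was 9.17 in WT against 9.65 in C3 KO. The higher genes were Ms4a1, which encodes the B cell surface protein targeted by rituximab (4.53 and 5.83), the signalling adaptor Bank1 (5.92 and 6.90), the B cell identity factor Pax5 (4.70 and 5.46) and the complement receptor Cr2 (4.40 and 5.15). Of 11 plasma cell genes, 0 passed 1.5-fold upward, and Derl3 (7.10 and 5.88) and Fkbp11 (6.42 and 5.39), 2 genes of the secretory pathway, passed it downward, with a median of -0.02 and a log2 summed signal of 11.89 and 11.99. These 2 of 11 stand beside the same 3.82%, and of the 11 genes 4 were positive and 7 negative. The summed signal rests mostly on Jchain, Cd38 and Xbp1, the brightest of the 11, at 10.51, 9.67 and 9.63 in WT. The 10 pancreatic acinar markers were lower in C3 KO too, and the part of acinar RNA in Derl3 and Fkbp11 was not tested. Of 8 germinal centre genes, with a median log2 difference of 0.00, Gcsam was higher, at 4.34 in WT against 5.13 in C3 KO, and Rgs13 lower, at 5.71 and 4.73. Of 8 follicle genes, 1 was higher, Cxcl13, the chemokine that draws B cells (6.67 and 7.41), 0 were lower and the median log2 difference was 0.22. None of the B cell, plasma cell and germinal centre markers lay below background. However, Cr2, Ms4a1 and Gcsam were near it in WT, at 4.40, 4.53 and 4.34, and Pax5 was not far above, at 4.70. The folds of these genes are thus only rough, whereas Bank1 stood higher in WT, at 5.92. The part of the B cell, plasma cell and germinal centre markers in the differences of the variable segments was not tested.

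Genes of kappa transcription, V(D)J recombination and the surrogate light chain gave counts too small to set against the 7.48% of all main clusters past 1.5-fold. Of 12 genes of kappa promoters and enhancers, such as the octamer factor Pou2f2, its coactivator Pou2af1 and Irf4, 0 passed that fold. Their median log2 difference was 0.21, and 10 of the 12 were positive. Of 7 genes of V(D)J recombination and the surrogate light chain, among them Rag1, Rag2 and Vpreb1, 0 passed it. Their median log2 difference was -0.17, and 6 of the 7 were negative, the lowest being Igll1 of the surrogate light chain, at -0.48. Their median level was near background, at 4.48 in WT against 4.49 in C3 KO. Rag2 was below background in both arrays (3.55 and 3.52), so the signs of these genes carry little weight.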

How the data were processed

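Total RNA of frozen mid colon was labelled, hybridized to the Affymetrix Mouse Gene 2.0 ST array and scanned by the authors, who normalized both arrays with the gene-level RMA method of Affymetrix Power Tools. All deposited values are on the log2 scale, and the series table holds the same values. The authors' fold changes, pathway and ontology tables were not used.

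All 33793 main clusters were read and the kappa rows were selected by symbol. Positions were compared with RefSeq genes of GRCm38.p6; all 257 build names in the descriptions are GRCm38. Differences were counted at 1.5-fold and 2-fold without a p-value, because there was 1 array per group. The number of arrays limits the precision.

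The members and gene lists were chosen with earlier results of these data known. The named rows are the 10 with the largest difference in each direction, the 10 brightest, the brightest of each family and the Igk-V rows; the other rows past 1.5-fold, and further rows named for contrast, were picked with their values in view. The counting was tested on simulated data. Alternatives were centring on the median, loess centring (fraction 0.3), the series table, level filters of 4 and 6, the background filter, type 1 rows, rows with 11 or more probes, 1 value per symbol and no Igk-V rows. Leaving out the joining and constant rows, and centring on the constant exon, were added after seeing the data. Versions were matplotlib 3.10.9, statsmodels 0.14.6, scipy 1.17.1, pandas 2.3.3, numpy 2.4.6 and Python 3.11.15.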

Additional observations from a re-analysis of the deposited data

How the results depend on the processing

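The counts of 28 higher and 13 lower rows (17 and 6 at 2-fold) and the median of 0.15 moved little under the scaling of the arrays, the series table, the level filter of 4, 1 value per symbol and the omission of the Igk-V, joining or constant rows: 26 to 30 rows were higher and 11 to 14 lower. Above background in both arrays, 22 and 11 were counted. Settings that keep only some of the 106 rows gave smaller counts, in part because fewer rows were left. At a mean level of at least 6, 17 were higher and 8 lower (10 higher at 2-fold). Type 1 rows gave 12 and 7 (9 and 2 at 2-fold), and rows with 11 or more probes 13 and 4 (8 and 2 at 2-fold). The share past 1.5-fold in either direction moved too. It was 38.7% of all kappa rows, 44.6% at the level of 6, 38.0% in type 1 rows and 30.4% with 11 or more probes. Relative to the constant exon, which was itself 0.26 higher, 19 rows were higher and 26 lower (11 and 11 at 2-fold) and the median was -0.11. There, 9 of the 28 higher rows were no longer past 1.5-fold (Igk-V21, Igkv10-96, Igkv13-84, Igkv17-121, Igkv2-112, Igkv4-59, Igkv5-37, Igkv5-45 and Igkv8-26), the 13 lower rows stayed past it, and 13 rows that had lain within it were lower. Under loess centring, Igk-V21 was the single one of the 42 rows compared by name that changed side. No paired analysis was possible because each group has 1 array.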

Other observations

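The lambda light chain rows, the alternative to kappa, also differed in both directions. Iglv1 was at 8.15 in WT against 7.30 in C3 KO and Iglc3, a lambda constant segment, at 7.28 and 6.03, both lower. Iglv3 was higher, at 5.46 and 6.94. Iglv2 (8.40 and 8.23) and Iglc2 (6.57 and 6.74) stayed within 1.5-fold.

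Among heavy chain constant names, 5 rows carry the symbol Ighm, with log2 differences from -0.74 to 1.92. They lie at different places on chromosome 12, from 113420867 to 115952831. Whether each of these rows lies on a constant exon was not checked. The row with the most probes, 22, was at 7.12 in WT against 8.29 in C3 KO. The brightest, a short row from 113429781 to 113429833, was at 10.70 and 10.66. The 2 rows with the symbol Ighg start at 113306389 (5.42 and 6.41) and at 114322374 (6.87 and 4.91). They went opposite ways, but their positions differ, so they need not read the same segment. Ighg2c (6.44 and 6.58) and Ighg3 (5.58 and 6.02) stayed within 1.5-fold.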
